A study of Homo sapiens with 6 samples.

Results

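The endoplasmic reticulum folds secreted and membrane proteins, and cells answer a folding overload through sensors in its membrane that make up the unfolded protein response. One of these sensors, the kinase PERK (gene EIF2AK3), phosphorylates the translation factor eIF2, as do other kinases that sense amino acid shortage, double-stranded RNA or haem shortage. This shared step, the integrated stress response, slows protein synthesis in general while raising translation of the transcription factors ATF4 and CHOP (gene DDIT3). The genes described here are 41 genes of these pathways, found by gene symbol. They comprise 15 genes of the ATF4 and CHOP branch, among them both factors themselves, 22 genes of ER chaperones and ER-associated degradation (ERAD, the removal of misfolded proteins), and the 3 sensor genes EIF2AK3, ERN1 and ATF6 with the transcription factor gene XBP1. All 41 were found. Of them 40 were among the 19775 genes with a probe set that listed 1 symbol, while the only probe set of SYVN1 also lists a microRNA gene. HSP90B1, one of the 40, was likewise read at such a probe set, its brightest. Together the 41 had 88 probe sets of the 54613 tested.

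The cells were MCF10A, an established non-tumorigenic human mammary epithelial line. One group received, by transfection, a miR-221 and miR-222 mimic, and the other a control microRNA, and RNA of 3 biological replicates of each group was hybridised to 1 array per replicate. Every group shared the cell line and the transfection itself; untransfected cells, dose and time were not analysed here. Nothing in the sources used here says that the replicates came from separate days or passages, so p-values measure the spread between these samples only.

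The microRNAs that the mimic is named for are shown because their common seed is what defines the treatment. Both 3p strands carry the same 7 bases at positions 2 to 8, in capitals, and their genes lie on the minus strand of chromosome X (GRCh38.p14, RefSeq).
hsa-miR-221-3p: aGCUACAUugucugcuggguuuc
hsa-miR-222-3p: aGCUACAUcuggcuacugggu

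The promoters of these genes carry short control elements that the pathway's factors are known to read. ATF6 and XBP1 bind the ER stress response element, ERSE (CCAAT and CCACG with 9 bases between them), and its variant ERSE-II (ATTGG and CCACG with 1 base between them), while ATF4 with a C/EBP partner binds a composite element (CARE), searched here as TGATG and AA with 1 base between them and 1 after. In the 250 bases before the listed starts, on both strands, ERSE was found in 7 of the 37 genes with a promoter in the RefSeq table (0.0916% of all 27305 genes in it), ERSE-II in 3 (0.0659%) and the ATF4 element in 5 (3.87%). The 5 genes with the ATF4 element were ASNS, CEBPG, CHAC1 and HERPUD1, which rose in the mimic arrays, and PPP1R15B, which fell. Of the 10 genes with an ERSE or ERSE-II, 4 rose (CANX, CRELD2, HERPUD1 and XBP1), 2 fell (HYOU1 and HSP90B1) and 4 did not pass the test (CALR, HSPA5, PDIA6 and SDF2L1). For CANX, PDIA6 and CEBPG the stretch with the element did not lie before every listed start of the gene. By the same test, given below, 65.9% of all 41 genes changed, as did 30.4% of all genes measured. Whether genes with an element changed more often than the other members was not tested. The elements are known from genes of these pathways, so their shares among members, set beside all genes, describe the promoters and test nothing. A match is a description of the letters and not evidence of binding, and the ERSE and ERSE-II patterns are built from the same 2 short words, since ATTGG is CCAAT read on the other strand. The stretches below were chosen to show the same elements before genes that moved in different directions; capitals mark the element and each runs 5′ to 3′ on the gene's strand.
ASNS, rose, ATF4 element, chr7:97872448-97872496, minus strand: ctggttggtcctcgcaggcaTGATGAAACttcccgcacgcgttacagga
CHAC1, rose, ATF4 element on the other strand, chr15:40953241-40953289, plus strand: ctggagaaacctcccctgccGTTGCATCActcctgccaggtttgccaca
PPP1R15B, fell, ATF4 element, chr1:204412016-204412064, minus strand: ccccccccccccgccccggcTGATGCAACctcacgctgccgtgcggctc
HERPUD1, rose, ERSE-II, chr16:56932005-56932055, plus strand: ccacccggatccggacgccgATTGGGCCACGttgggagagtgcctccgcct
HYOU1, fell, ERSE-II on the other strand, chr11:119057254-119057304, minus strand: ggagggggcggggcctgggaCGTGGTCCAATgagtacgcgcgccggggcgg
HSPA5, not passed, ERSE, chr9:125241371-125241429, minus strand: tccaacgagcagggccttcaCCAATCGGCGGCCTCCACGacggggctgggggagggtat
These coordinates are of GRCh38.p14 and the sequences are RefSeq's. HYOU1 carried a second ERSE-II in the same 250 bases, and HSP90B1 carried 2 ERSE.

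The comparison asked which of these transcripts the mimic cells and the control cells held at different levels. By limma with Benjamini-Hochberg adjustment over all probe sets, 27 of the 41 genes changed (65.9%): 17 were higher with the mimic and 10 lower, against a background of 30.4% of all genes (14.1% higher and 16.3% lower). The balance over all genes turned with the scaling: 2780 were higher and 3233 lower here, 3418 and 3027 after quantile normalization again, and 2303 and 3423 after median centring. Members stayed more often higher than lower, with 18 and 8 and with 15 and 10. Each gene was read at its brightest probe set. Since 39 of the 41 genes lay above the median of all probe sets, the closer background is that of genes above it, of which 40.3% changed (17.7% higher and 22.6% lower); 25 of those 39 members did, 15 higher and 10 lower. The median difference over the 41 genes was 0.06 on the log2 scale, beside 0.03 over all genes. Most differences were modest, and only CLGN and HYOU1, each with just 1 probe set, changed at least 2-fold.

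The groups of arrays did not overlap for 34 of the 41 genes, beside 45.6% of all genes and 56.4% of the brighter ones, with the mimic above the control for 19 and below it for 15. Mimic replicate 1 was the lowest of the mimic arrays for 36 of the 41 genes, and for 47.0% of all genes. Without it 24 members changed, 17 higher and 7 lower, beside 5868 of all genes (2913 higher and 2955 lower). Control replicate 3 was the lowest of the control arrays for 25 of the 41, and for 33.8% of all genes. When it was left out 24 members changed, 14 higher and 10 lower, beside 5724 of all genes (2741 higher and 2983 lower). With all 6 arrays, 27 members and 6013 of all genes changed.

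**Figure D1:**
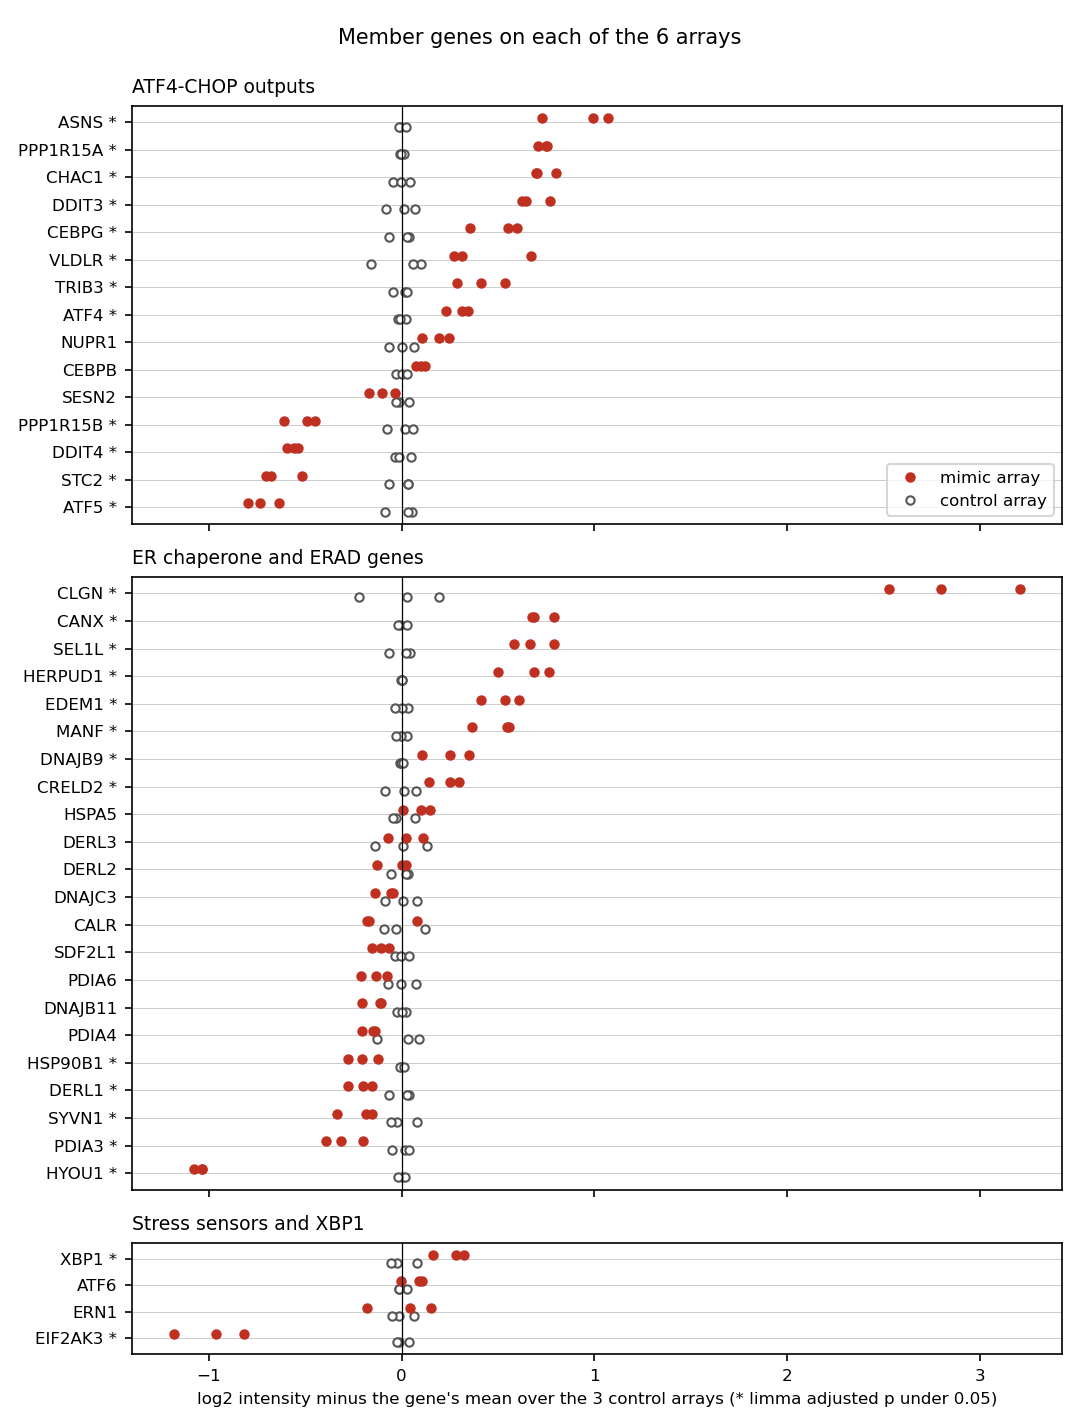
Each point is 1 array (filled, mimic; open, control), plotted as its log2 intensity minus the gene's mean over the 3 control arrays, for the 41 genes in 3 panels; an asterisk marks limma adjusted p under 0.05. CLGN stands far to the right of every other gene, HYOU1 and EIF2AK3 lie farthest to the left, and both branches hold genes on either side of 0.

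Of the 3 sensors, PERK's gene was lower in the mimic arrays and the others did not pass, while XBP1 was slightly higher. EIF2AK3 measured 8.59, 8.81 and 8.96 in the mimic arrays and 9.81, 9.76 and 9.75 in the control arrays, on the log2 scale. Every mimic array lay below every control array, a difference of -0.99 ± 0.09 (SE, n = 3 each; limma adjusted p = 8.3e-06), so that the level was 1.98-fold higher in the control. The second EIF2AK3 probe set, at levels below the array medians of 7.59 to 7.66, had a difference of -0.02 and did not pass. XBP1, the transcription factor whose messenger RNA is spliced by the sensor kinase IRE1, rose from 10.58 ± 0.07 to 10.83 ± 0.08 (SD, n = 3 each, limma adjusted p = 0.0180). The other XBP1 probe set, at levels below the array medians, had a difference of the opposite sign, -0.15 ± 0.09 (SE), and did not pass. The XBP1 call was lost under 5 of 13 alternatives (here and below, stricter thresholds are not counted), 4 of them leaving out an array (control replicate 2 or 3, mimic replicate 2 or 3), and its adjusted p (limma) ranged from 0.0019 to 0.522; spliced and unspliced forms are not told apart by these values. ATF6, a sensor that is cut to release a transcription factor, had a difference of 0.06 ± 0.06 (SE), and ERN1, which encodes IRE1, one of 0.01 ± 0.09 (SE). Neither passed on any of its probe sets, 4 for ATF6 and 3 for ERN1.

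The ATF4 and CHOP branch held 8 genes that rose and 4 that fell, of 15 (80% changed, beside 30.4% of all genes and 40.3% of the brighter ones). Its median difference was 0.30 on the log2 scale, beside 0.03 over all genes, and for all 15 genes the groups did not overlap, as for 45.6% of all genes. ATF4 measured 13.23, 13.31 and 13.34 in the mimic arrays and 12.98, 13.02 and 12.99 in the control arrays. The rise was small, 1.23-fold (limma adjusted p = 0.0041); ATF4 is controlled largely through its translation, which arrays do not measure. DDIT3 measured 10.38, 10.40 and 10.53 in the mimic arrays against 9.77, 9.68 and 9.83 in the control arrays. That was a 1.60-fold rise (difference 0.68 ± 0.07, SE; limma adjusted p = 2.4e-05) with a gap between the groups wider than the range within either.

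Several known outputs of ATF4 rose with DDIT3. ASNS, the enzyme that makes asparagine, measured 9.74, 10.01 and 10.09 in the mimic arrays and 9.01, 9.01 and 9.04 in the control arrays. The control arrays were almost identical and the mimic arrays spread wider, all of them above the control (difference 0.93 ± 0.09, SE; limma adjusted p = 1.2e-05); a second probe set, at levels below the array medians, had a difference of 0.11 and did not pass. CHAC1, which degrades glutathione, measured 8.84, 8.94 and 8.84 against 8.10, 8.14 and 8.19. Both groups were tight and the difference was 0.73 ± 0.06 (SE; limma adjusted p = 6.5e-06). CEBPG, a dimer partner of ATF4, measured 10.13, 10.33 and 10.38 against 9.81, 9.71 and 9.80, a rise of 0.50 ± 0.08 (SE; limma adjusted p = 0.00047). The other CEBPG probe set, also above the array medians, had overlapping groups and a difference of 0.09 ± 0.09 (SE; limma adjusted p = 0.548), and the mean of both gave 0.29, still past the test. The pseudokinase gene TRIB3, induced by ATF4 and CHOP, rose by 0.41 ± 0.07 (SE), and on both of its probe sets. VLDLR, a lipoprotein receptor reported as induced through PERK and ATF4, rose by 0.42 ± 0.11 (SE), at levels below the array medians; its limma adjusted p was 0.0146, and 0.0690 without control replicate 2.

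The 2 regulatory subunits that direct a phosphatase to eIF2, and so end the response, moved apart. PPP1R15A encodes GADD34, the stress-induced subunit, and measured 10.10, 10.15 and 10.14 in the mimic arrays and 9.38, 9.40 and 9.39 in the control arrays. Its difference was 0.74 ± 0.06 (SE; limma adjusted p = 3.5e-06), and the other probe set of the gene gave 0.90. PPP1R15B encodes CReP, the subunit made without stress, and measured 11.00, 11.12 and 11.15 against 11.62, 11.66 and 11.53. Here the mimic arrays were all lower, by a difference of -0.52 ± 0.07 (SE; limma adjusted p = 0.00019).

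The other members of the branch that fell were ATF5, STC2 and DDIT4. ATF5, a relative of ATF4 that is likewise controlled in translation, measured 8.28, 8.44 and 8.34 in the mimic arrays and 9.13, 9.11 and 8.99 in the control arrays. It was 1.65-fold higher in the control (limma adjusted p = 1.6e-05), and 2 of its 4 probe sets fell while the others lay at 0.01 and 0.07. STC2, a secreted glycoprotein gene induced by ER stress, measured 8.53, 8.56 and 8.72 against 9.27, 9.27 and 9.17. Both of its probe sets fell, with differences of -0.63 and -0.39. DDIT4, also called REDD1, an inhibitor of mTORC1 signalling, measured 12.86, 12.92 and 12.90 against 13.43, 13.51 and 13.44, a difference of -0.56 ± 0.06 (SE; limma adjusted p = 3.5e-05). The groups were narrow and well apart for all 3 genes.

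The remaining members of the branch did not pass, with differences between -0.10 and 0.18: the transcription factor gene CEBPB (0.10 ± 0.06, SE), the chromatin protein gene NUPR1 (0.18 ± 0.07, SE) and SESN2, an amino acid sensor gene (-0.10 ± 0.06, SE). NUPR1 had a limma adjusted p of 0.0703 and passed under 5 of 13 alternatives, with values from 0.0059 to 0.184.

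No single direction was shared by the 22 ER chaperone and ERAD genes, of which 8 rose and 5 fell (59.1% changed, beside 30.4% of all genes and 40.3% of the brighter ones), with a median difference of -0.06 on the log2 scale. After quantile normalization of the values again, 8 rose and 3 fell. Split by role, 5 of 15 chaperone and folding genes rose and 3 fell, and 3 of 7 ERAD genes rose and 2 fell. The groups did not overlap for 17 of the 22, beside 45.6% of all genes.

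**Figure D2:**
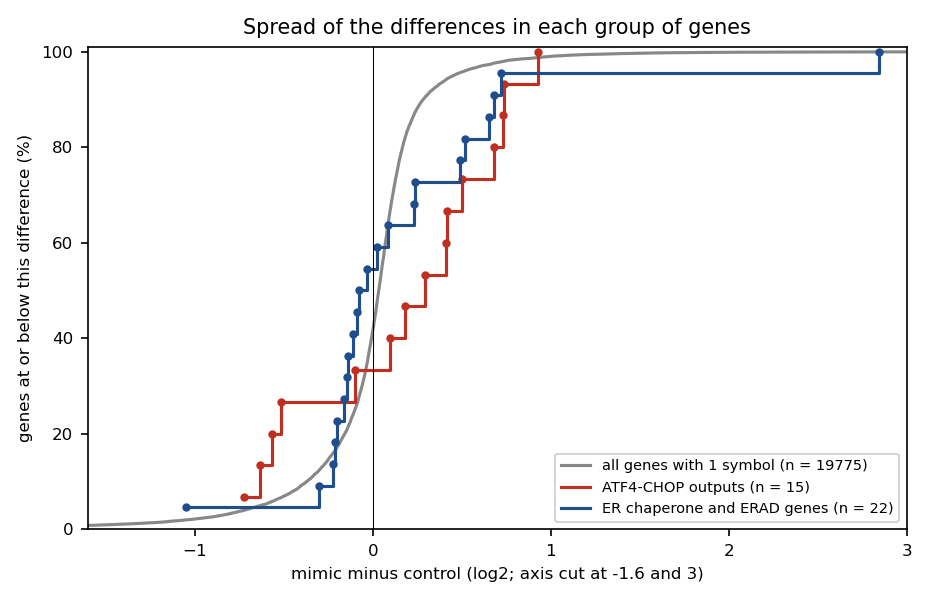
The lines give the share of genes at or below each difference (mimic minus control, log2) for all 19775 genes and for the 2 larger groups of members. The ATF4 and CHOP genes lie to the right of all genes over most of their range, with a median of 0.30, but 4 of them lie far to the left, and the chaperone and ERAD genes cross the line of all genes near 0.

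The membrane-bound lectin chaperones, which hold new glycoproteins by their sugars, rose. CLGN encodes calmegin, a relative of calnexin known mainly from the testis, and measured 8.21, 8.49 and 8.89 in the mimic arrays and 5.71, 5.47 and 5.88 in the control arrays. This was the widest gap of any member, 7.19-fold (difference 2.85 ± 0.15, SE; limma adjusted p = 1.8e-07), and it started from control levels below the array medians; whether those control values lay above background is not known. CANX, calnexin itself, measured 13.31, 13.32 and 13.42 against 12.62, 12.66 and 12.61, a 1.65-fold rise (limma adjusted p = 6.9e-06). It rose on 4 of its 5 probe sets, by up to 1.06. CALR encodes calreticulin, their soluble counterpart, and did not follow: its brightest probe set had a difference of -0.09 ± 0.09 (SE), and another fell by 0.37 (limma adjusted p = 0.00095). The 2 other CALR probe sets, the brightest among them, have the suffix x_at, which marks probes that can bind several transcripts.

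Among the Hsp70-type chaperones, HYOU1 was clearly lower and HSPA5 was not. HYOU1, also called GRP170, a nucleotide exchange partner of BiP, measured 10.76, 10.80 and 10.80 in the mimic arrays and 11.84, 11.85 and 11.82 in the control arrays. Each group spanned a few hundredths and the groups lay 1.05 ± 0.06 apart (SE; limma adjusted p = 2.3e-07), 2.07-fold higher in the control. HSPA5 encodes BiP, the main chaperone of the ER lumen, and measured 12.84, 12.93 and 12.97 against 12.90, 12.80 and 12.78. The groups overlapped, with a difference of 0.08 ± 0.07 (SE; limma adjusted p = 0.405), although the other, dimmer HSPA5 probe set rose by 0.25 (limma adjusted p = 0.0311). HSP90B1, the ER form of Hsp90 (GRP94), fell by 0.20 on the log2 scale (limma adjusted p = 0.0378), and on 3 of its 4 probe sets. The probe set used for HSP90B1 also lists the microRNA gene MIR3652, and the call was lost under 6 of 13 alternatives, with limma adjusted p from 0.0027 to 0.117.

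The J-domain partners of BiP differed from one another. DNAJB9 (ERdj4) rose on all 3 of its probe sets, by 0.24 to 0.41 on the log2 scale. At its brightest probe set the limma adjusted p was 0.0325, and the call was lost under 6 of 13 alternatives, median centring and leaving out any 1 array other than mimic replicate 1, with values from 0.0028 to 0.106 over the 13. DNAJC3 (P58IPK), reported as an inhibitor of PERK, had a difference of -0.08 ± 0.07 (SE) at its brightest probe set, and fell on the 3 others, by 0.29 to 0.51. DNAJB11 (ERdj3) had a difference of -0.14 ± 0.06 (SE) and SDF2L1, its partner, one of -0.11 ± 0.06 (SE); neither passed.

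Protein disulfide isomerases form and rearrange disulfide bonds. The genes of this family among the members, PDIA3, PDIA4 and PDIA6, had differences below 0 on every probe set, though most probe sets did not pass. PDIA3 (ERp57), which works with the lectin chaperones, fell by 0.30 at its brightest probe set (limma adjusted p = 0.0071). The 2 other PDIA3 probe sets, with differences of -0.19 and -0.16, did not pass. PDIA4 had a difference of -0.16 ± 0.07 (SE) at its brightest probe set and fell at the other, by 0.37. PDIA6 had differences between -0.14 and -0.07 on its 4 probe sets, none of which passed; its brightest probe set, like that of DERL3, also has the suffix x_at. Of the secreted stress-induced proteins, MANF, an ER-resident factor with neurotrophic activity, rose from 10.21 ± 0.03 to 10.70 ± 0.11 (SD, n = 3 each; limma adjusted p = 0.0003). CRELD2 rose by 0.23 ± 0.07 (SE; limma adjusted p = 0.0325), a call lost under 5 of 13 alternatives.

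In the ERAD group, the genes that rose were HERPUD1, SEL1L and EDEM1. HERPUD1, a scaffold of the degradation complex, measured 11.83, 12.02 and 12.10 in the mimic arrays and 11.33 in each of the 3 control arrays, a difference of 0.65 ± 0.07 (SE; limma adjusted p = 6.1e-05). SEL1L, the adaptor of the ubiquitin ligase HRD1, measured 10.62, 10.71 and 10.84 against 10.09, 10.06 and 9.98. EDEM1, which trims mannose from misfolded glycoproteins, measured 10.77, 10.90 and 10.98 against 10.40, 10.37 and 10.33. For each of these 3 genes the groups were fully apart, and the rises were 1.57-fold, 1.60-fold and 1.43-fold. SEL1L rose on 2 of its 4 probe sets, by 0.68 and 0.42, and the second HERPUD1 probe set had a difference of 0.06 and did not pass.

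SYVN1, which encodes the ligase HRD1 itself, fell by 0.22 ± 0.07 (SE; limma adjusted p = 0.0394); its only probe set also lists the microRNA gene MIR6751. DERL1, a membrane protein of the retrotranslocation channel, fell by 0.21 ± 0.06 (SE; limma adjusted p = 0.0351), on 1 of its 4 probe sets. Both calls changed with the processing: DERL1 no longer passed under 7 of 13 alternatives and SYVN1 under 5 of 12. Its relatives DERL2 (-0.03 ± 0.07, SE) and DERL3 (0.02 ± 0.08, SE) did not pass at their brightest probe sets, and the other DERL2 probe set rose by 0.24. Among the 22 chaperone and ERAD genes together, the count that fell dropped from 5 to 2 when some single arrays were left out. This held for control replicates 1 and 2 and for mimic replicates 1 and 2. Over all genes, the count that fell went from 3233 to between 2670 and 2955 in the same fits. The count of the 22 that changed dropped from 13 to 8 without control replicate 1 or mimic replicate 2. Over all genes it dropped from 6013 to 4753 and 4792, respectively.

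Of the 88 probe sets, 27 were higher and 19 lower, beside 24.8% of all probe sets called. Among the 25 genes read by several probe sets, 0 had probe sets called in opposite directions. For 5 genes (CALR, DERL2, DNAJC3, HSPA5 and PDIA4) another probe set was called while the brightest was not.

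**Figure D3:**
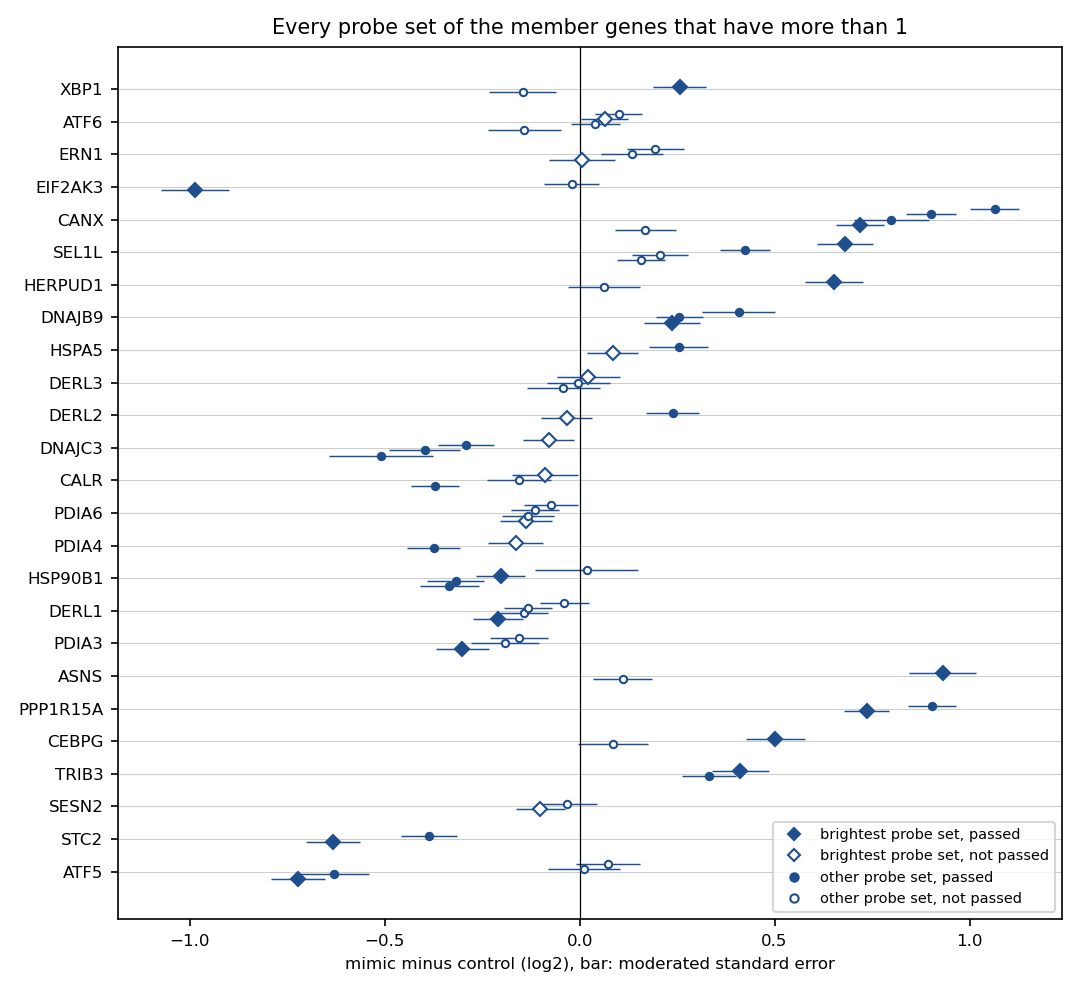
Differences (mimic minus control, log2) with limma's standard errors for every probe set of the 25 genes that have several; diamonds are the brightest, filled symbols passed. CANX lies to the right of 0 on all 5 probe sets, PPP1R15A and STC2 passed on both of theirs, and EIF2AK3, ASNS, CEBPG, HERPUD1 and XBP1 each rest on 1 of 2.

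Other genes of these pathways, in lists drawn from general knowledge, were read in the same fit, where 30.4% of all genes and 40.3% of the brighter ones changed. Of 12 eIF2 kinases and translation factors, 2 fell and 0 rose (16.7% changed, by limma; at an unadjusted p under 0.05, 4 fell and 0 rose): EIF2S3, the gamma subunit of eIF2, by 0.82 on the log2 scale and EIF2AK1, the haem-sensing kinase, by 0.22. The double-stranded RNA kinase gene EIF2AK2 (0.04 ± 0.08, SE) and the amino acid sensing kinase gene EIF2AK4 (0.14 ± 0.07, SE) did not pass. Of 25 further genes reported as ATF4 or CHOP outputs, 9 rose and 9 fell (72% changed). The largest rises were those of the cystine transporter gene SLC7A11 (2.77) and the transcription factor gene JDP2 (1.55). PSPH, the last enzyme of serine synthesis, fell most (1.82 lower on the log2 scale, 7.64 ± 0.27 against 9.47 ± 0.07, SD, n = 3 each), followed by the transporter gene SLC7A5, with -0.67. The median of that list was 0.02, below the 0.30 of the members of the branch.

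Of 26 further ER chaperones and folding enzymes, 3 rose and 7 fell; this share of 38.5% is close to that of the brighter genes, and all 26 lay above the median of every array. The oxidase gene ERO1B rose by 0.59, SELENOM by 0.35 and the prolyl isomerase gene FKBP2 by 0.25, while the thioredoxin-like gene TXNDC12 (-1.38) and the prolyl isomerase gene FKBP14 (-0.82) fell most. Of 16 genes of the translocon and signal peptidase, through which new proteins enter the ER, 9 fell and 2 rose (68.8% changed). SSR3, a subunit of the translocon-associated complex, fell most (9.60 ± 0.13 against 11.45 ± 0.10, SD, n = 3 each), followed by the signal recognition particle receptor gene SRPRA (-0.83); SSR2 (0.29) and the peptidase subunit gene SEC11C (0.23) rose. Their median was -0.22.

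Of 22 further ERAD genes, 8 rose and 5 fell (59.1% changed). EDEM3 (0.86) and EDEM2 (0.48), relatives of EDEM1, rose most. The ubiquitin-conjugating enzyme genes UBE2J2 (-0.58) and UBE2G2 (-0.50) fell most, and FAF2, AUP1 and VCP fell by less. All 3 EDEM genes measured were thus higher. Of 14 further regulators, 3 rose and 0 fell by limma (21.4% changed; also 3 and 0 at an unadjusted p under 0.05): CREBRF, a regulator of CREB3 (0.59), MBTPS2, a protease that cuts ATF6 (0.31), and SERP1 (0.23). FKBP2, SERP1, FAF2, AUP1 and VCP are outside the rule for named genes and were added with their values known, so that small counts are complete. EIF2AK2 and EIF2AK4, named above although they did not pass, are outside this rule too.

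Markers of epithelial cells lay above the array medians on every array for 8 of 8 measured genes, and all 8 fell, with summed linear intensities of 20954 to 22521 in the mimic and 47493 to 49273 in the control arrays. Of 10 fibroblast markers 1 rose and 2 fell (sums 16603 to 17624 against 8480 to 8946, the rise being that of DCN), of 8 endothelial markers 0 rose and 1 fell by limma (also 0 and 1 at an unadjusted p under 0.05; sums 1867 to 1999 against 2150 to 2337), and of 7 blood markers 1 rose and 1 fell (1665 to 1699 against 2127 to 2180). RMA values are never 0, so no marker could be listed at 0. In the control probe sets of ACTB, the log2 signal of the 3′ end exceeded that of the 5′ end by 0.33 to 0.39 in the mimic and by 0.29 to 0.36 in the control arrays. The same difference in GAPDH was 0.02 to 0.04 in the mimic and -0.05 to 0.02 in the control arrays, with every mimic array narrowly above every control array. The part of cell identity or RNA quality in the differences above was not tested. In RNA from whole cultures, fewer cells of a kind and less RNA per cell cannot be told apart.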

How the data were processed

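The deposited values are log2 intensities per probe set, which the authors obtained by RMA (robust multi-array averaging) according to the submitters' processing notes; for its version, its settings and the genome build, nothing is stated in the sources used here. RMA makes arrays alike in distribution, so it hides a change in total RNA per cell and compresses dim values. The number of arrays limits the precision.

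Of 54675 probe sets, 62 controls were left out. Genes came from the platform annotation; a probe set counted as a member's if any of its listed symbols was a member, which 3 with several symbols were. All other genes needed 1 symbol (41091 probe sets; 1801 listed several and 11721 none). The probe set brightest on average over the 6 arrays stood for its gene. Mimic and control were compared with limma 3.58.1 (lmFit and eBayes) in R 4.3.3, adjusted by Benjamini-Hochberg over all probe sets, with a threshold of 0.05. The fit was tested on simulated data. Differences are mimic minus control. Members, lists and tests were chosen with earlier results of these data known, so no list was tested as a set. Values on all arrays are given for members that changed by at least 0.5; from each other list, up to 2 rises and 2 falls. Alternatives were another normalization (quantile, median centring), a dim filter, another variance model, a replicate block, leaving out each array, averaging probe sets, stricter thresholds and, chosen after seeing the data, probe sets with 1 symbol only. Python 3.11.15 and matplotlib 3.10.9 made tables and figures.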

Additional observations from a re-analysis of the deposited data

How the results depend on the processing

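No member's difference changed sign in a way that touched a call: of 571 values of the 41 genes under alternatives, 519 stayed on the same side of the threshold, 42 lost and 10 gained a call, and 0 called values reversed. Among the 519, 12 values of 3 genes near 0 (ERN1, DERL2 and DERL3) changed sign, reaching at most 0.10. These genes passed neither at their brightest probe sets nor under any alternative. Of the 27 called genes, 20 kept their call under every alternative that gave them a value except the 1.5-fold minimum (the filter on dim probe sets removed CLGN, one of these, and VLDLR); VLDLR, XBP1, HSP90B1, DNAJB9, CRELD2, SYVN1 and DERL1 did not. Leaving out each array in turn gave 21 to 25 members changed, 8 to 12 of the chaperone and ERAD genes (2 to 5 lower), and 1 to 2 of the sensors with XBP1 (0 to 1 higher). Over all genes, 4753 to 5868 changed in these fits, beside 6013 with all 6 arrays. When a gene's probe sets were averaged, XBP1 no longer passed, so that of these 4 genes 1 changed and 0 rose. After quantile normalization again 3 chaperone and ERAD genes fell. With the replicate number as a block 3 fell as well, by losing HSP90B1 and DERL1. Whether the numbers pair the samples is not known. Deviations of same-numbered arrays from their group means correlated with r of -0.107, 0.0841 and 0.0817, and mimic replicate 1 correlated best with control replicate 2 (0.120). With 3 arrays per group the deviations sum to 0, so these correlations nearly cancel by construction and cannot show or exclude pairing. At an adjusted p under 0.01, by construction fewer passed: 8 chaperone and ERAD genes (2 lower), 1 of the sensors with XBP1 (0 higher), and 1815 of all genes higher. Those 1815 were 42.3% of all genes that passed at 0.01, and the rest of these were lower. With a 1.5-fold minimum, also fewer by construction, 12 members changed (8 higher, 4 lower). These were 6 of the ATF4 and CHOP branch (4 higher, 2 lower), 5 chaperone and ERAD genes (4 higher, 1 lower) and 1 sensor (0 higher), beside 1723 of all genes (640 higher, 1083 lower). No scaling moved the median of all genes by more than 0.03. Whether dim values, such as those of CLGN in the control arrays, lie above background is not known.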
